A study of Mus musculus with 27 samples.

Results

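The 51 genes described here act in mitosis and in the transition from G2 phase into it, and were chosen by name as a list of known cell cycle genes. All 51 were found in the RNA-seq table of parental cells, which holds 23295 genes, and in the table of shRNA cells, which holds 24247, and all 51 passed the filter on low values described below. The cells were NMuMG, an untransformed epithelial line from mouse mammary gland that undergoes EMT under TGF-β. RNA-seq gave 2 libraries each of parental cells that were untreated, treated with TGF-β for 8 h or treated for 24 h, and 2 libraries each, at the same 3 times, of control (C) cells carrying an irrelevant shRNA and of lamin B1 knockdown (KD) cells carrying a shRNA against lamin B1. Both shRNAs were delivered by lentivirus and cells were selected with puromycin, so the C and KD cells share infection and selection and the parental cells had neither. TGF-β was added at between 1 and 5 ng/ml per the labels. The knockdown was partial, as the values of Lmnb1 below show. For lamin B1 ChIP-seq and for ATAC-seq there was a single library at each of the 3 times.

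Cells enter mitosis when Cdk1 bound to cyclin B (Ccnb1, Ccnb2) becomes active, and they leave it when the anaphase-promoting complex, with Cdc20 and Ube2c, destroys cyclin B and securin (Pttg1). The genes of this programme are switched on late in the cycle through promoter elements called the CHR and the CCAAT box. The MuvB complex binds the CHR through Lin54. In resting cells it acts as the repressor DREAM with p107 or p130 and E2f4, and in cycling cells B-Myb (Mybl2) and then Foxm1 join MuvB as activators. NF-Y binds the CCAAT box. TGF-β is known in epithelial cells for arresting the cycle in G1, in part through the CDK inhibitor p15 (Cdkn2b) and the loss of Myc.

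The knockdown was visible in each library of the shRNA table. Lmnb1, the gene that encodes lamin B1, had 9.01 and 9.27 FPKM in untreated KD cells against 29.2 and 36.5 in untreated C cells. The difference was -1.73 on the log2(FPKM + 1) scale (SE 0.18, limma adjusted p = 5.7e-04). At 8 h Lmnb1 had between 7.79 and 8.14 FPKM in KD cells and between 32.1 and 32.8 in C cells. At 24 h its KD libraries lay further apart, at 4.37 and 7.52, against 17.9 and 18.4 in C cells. In parental cells it also fell, from between 36.3 and 36.9 untreated to between 17.6 and 19.5 at 24 h. FPKM scales fragment counts by transcript length and by library size, so that levels can be compared between genes. The 6 epithelial markers Epcam, Cdh1, Krt8, Krt18, Krt7 and Cldn4 summed to between 3866 and 7013 FPKM per library over both tables, whereas the 6 immune markers found and the 5 endothelial markers summed to at most 2.01 and 1.77 FPKM. Of these, 5 of 6 immune and 5 of 5 endothelial markers were under 1 FPKM in every library, and none was at 0 in all of them. The files hold no read counts, so the depth of each library is unknown. Judged from the steps between low values, the relative depth of the parental libraries ranged from 92.7 to 116% of the first library, and that of the shRNA libraries from 79.6 to 114%. A pair of libraries stood apart for these genes. In untreated C cells, the second library was above the first in 51 of 51 members, by a median of 0.25 on the log2 scale, and in KD cells at 24 h the libraries differed by as much as 0.86 (Smc4, lower in the second), with r = 0.96 between them over the genes tested.

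The promoters of the members held the elements of this programme. RefSeq promoters (GRCm38.p6, 250 bases before to 50 after the start) were found for 42 of the 51 members, and motifs were searched on both strands. The CHR, searched as TTTGAA with its reverse complement TTCAAA, was present in 29 of 42, or 69.0%, against 11.5% of the 8446 promoters of genes tested in parental cells and 18.1% of all 27025 promoters. The CCAAT box, searched as CCAAT with its reverse complement ATTGG, was present in 33 of 42, or 78.6%, against 39.6% of genes tested and 37.9% of all promoters. The variant TTTAAA was found in 8 of 42 (19.0%, against 8.80% of genes tested), and TATAAA in 1 of 42 (2.38%, against 6.90%). Of 33 DNA replication genes, which act earlier in the cycle, 5 held the CHR (15.2%) and 20 the CCAAT box (60.6%).

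Shown here are the 200 bases before the start of 7 members, chosen to show promoters with both elements (Cdk1, Cdc20, Top2a), promoters with CCAAT boxes and the variant TTTAAA but no TTTGAA in these bases (Ccnb1, Cenpa), and the genes that fell most at 8 h in parental cells (Ect2, Mybl2). Capitals mark the CCAAT box, the CHR and its variant on either strand.
Cdk1 (chr10:69352913-69353112, minus strand): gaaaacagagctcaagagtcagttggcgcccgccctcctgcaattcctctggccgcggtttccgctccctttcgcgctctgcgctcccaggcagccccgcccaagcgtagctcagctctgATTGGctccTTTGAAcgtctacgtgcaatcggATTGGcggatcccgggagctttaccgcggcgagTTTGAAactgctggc
Cdc20 (chr4:118437344-118437543, minus strand): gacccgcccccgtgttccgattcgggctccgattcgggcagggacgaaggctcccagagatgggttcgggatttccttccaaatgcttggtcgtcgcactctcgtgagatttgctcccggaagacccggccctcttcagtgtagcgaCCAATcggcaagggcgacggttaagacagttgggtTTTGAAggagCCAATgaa
Top2a (chr11:99024190-99024389, minus strand): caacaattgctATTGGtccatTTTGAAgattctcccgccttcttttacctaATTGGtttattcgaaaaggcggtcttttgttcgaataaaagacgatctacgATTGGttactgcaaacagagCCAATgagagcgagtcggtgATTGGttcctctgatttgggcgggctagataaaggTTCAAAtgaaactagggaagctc
Ccnb1 (chr13:100786487-100786686, minus strand): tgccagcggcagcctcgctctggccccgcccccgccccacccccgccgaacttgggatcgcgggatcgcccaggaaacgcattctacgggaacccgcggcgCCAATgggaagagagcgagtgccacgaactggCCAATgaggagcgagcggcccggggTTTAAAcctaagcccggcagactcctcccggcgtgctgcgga
Cenpa (chr5:30666686-30666885, plus strand): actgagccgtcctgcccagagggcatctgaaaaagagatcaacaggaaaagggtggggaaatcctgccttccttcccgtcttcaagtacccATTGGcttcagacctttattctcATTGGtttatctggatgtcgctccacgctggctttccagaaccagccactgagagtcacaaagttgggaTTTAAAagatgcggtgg
Ect2 (chr3:27153879-27154078, minus strand): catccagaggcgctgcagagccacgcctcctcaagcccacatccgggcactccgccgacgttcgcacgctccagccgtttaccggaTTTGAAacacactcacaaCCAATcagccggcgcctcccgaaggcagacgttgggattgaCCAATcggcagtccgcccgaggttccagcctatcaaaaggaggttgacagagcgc
Mybl2 (chr2:163054435-163054634, plus strand): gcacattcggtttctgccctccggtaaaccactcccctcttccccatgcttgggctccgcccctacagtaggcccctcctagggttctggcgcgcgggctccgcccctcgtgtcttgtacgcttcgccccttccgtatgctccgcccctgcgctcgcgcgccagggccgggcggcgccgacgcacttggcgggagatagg
Cdk1 and Top2a each held 2 copies of the CHR in these bases, and Top2a held 5 CCAAT boxes. In the bases shown for Mybl2 none of these motifs was found, which says only that these letters were not there. Members with and without the CHR did not separate by their change in expression. At 24 h in parental cells the median change was -1.36 on the log2 scale in the 29 members with it and -1.34 in the 13 without, and at 8 h it was -0.31 and -0.37.

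In parental cells, all 51 members were lower after 24 h of TGF-β. The median member kept 37.8% of its untreated level, a 2.65-fold fall, and 49 of 51 were below 50%. Tests used limma on log2(FPKM + 1) over the 11309 parental genes that reached 1 FPKM in 2 or more libraries, and a gene was called at a Benjamini-Hochberg adjusted p under 0.05. By this test 51 of 51 members were called lower at 24 h, where 37.1% of all genes tested were called lower. The median difference of the members was -1.34 and that of all genes was -0.02. Of the members, 38 lay among the lowest 5% of all genes by change and 50 among the lowest 10%. Over the same time the summed level of 6 mesenchymal markers went from between 1527 and 1528 FPKM in untreated cells to between 2364 and 2478 at 24 h. That of the 6 epithelial markers also rose, from between 3866 and 3924 FPKM to between 4270 and 4276. Such a sum is set mainly by the most abundant markers. At 8 h, of the 5 epithelial markers tested, 4 were called higher and 1 lower (22.4% and 32.1% of all genes). The part of either set of markers in the result was not tested. In RNA from a whole culture, fewer cells in G2 or mitosis and less RNA of these genes per cell cannot be told apart.

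**Figure D1:**
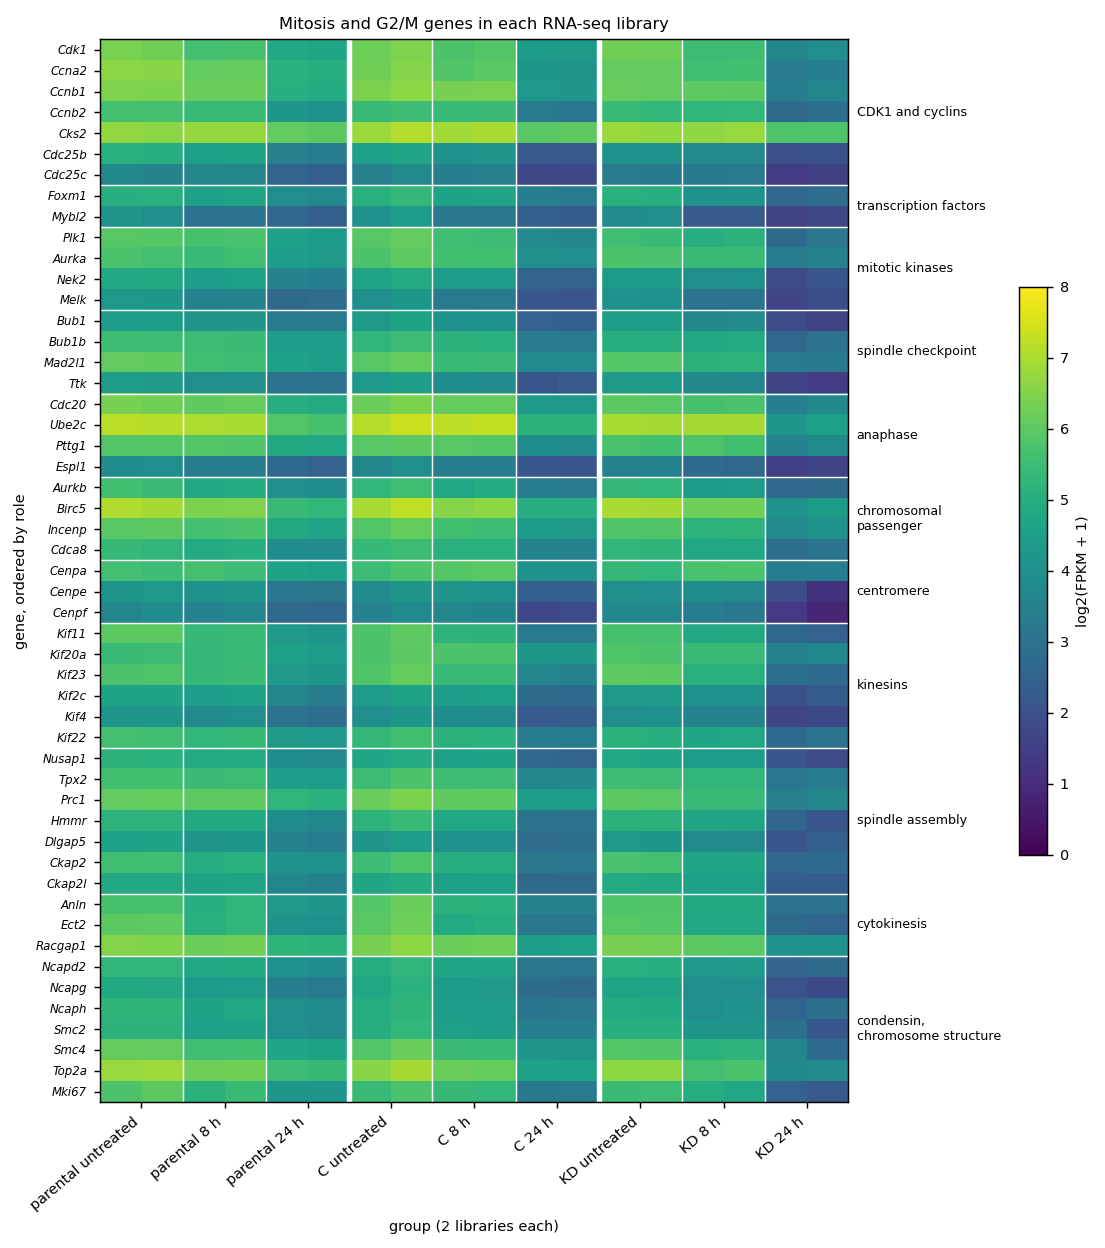
Level of each of the 51 genes, as log2(FPKM + 1), in each of the 18 RNA-seq libraries, with genes ordered by role from top to bottom and the 2 libraries of each group side by side. All genes are darkest, that is lowest, at 24 h within each cell series, Cks2 keeps the highest level there, and the second library of untreated C cells is brighter than the first.

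At 8 h the fall was partial and uneven. The median member kept 77.4% of its untreated level, 38 of 51 members were called lower (32.1% of all genes were), and none was called higher by limma. From 8 to 24 h all 51 members were called lower (24.0% of genes), with a median level of 48.4% of that at 8 h. The median member had completed 25.2% of its 24 h change, on the log2 scale, by 8 h. Mybl2 had completed 65.9% and Cks2 had not begun to fall.

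**Figure D2:**
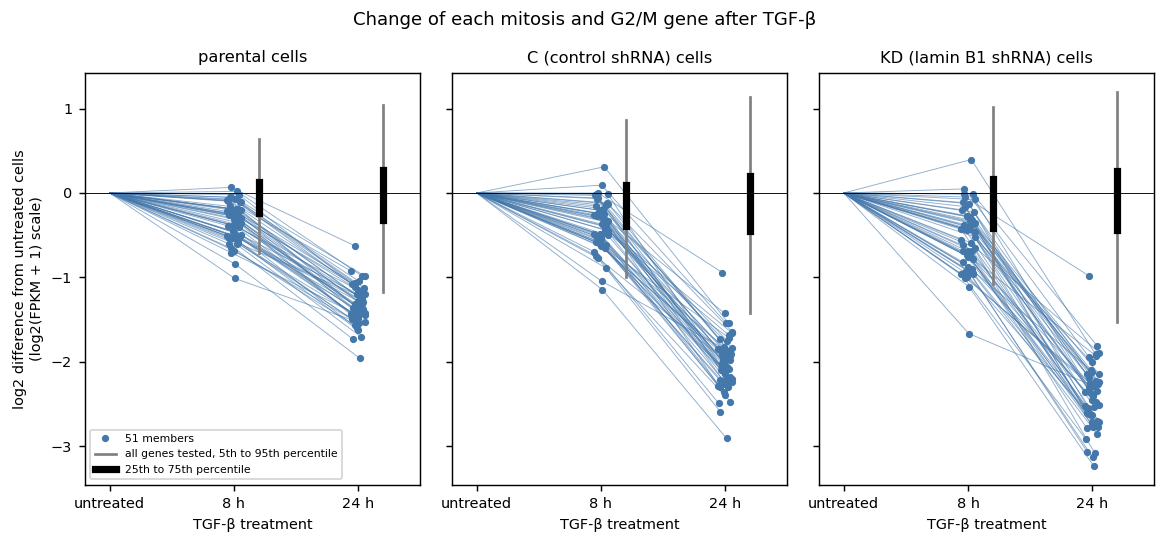
Log2 difference of each member from untreated cells after 8 and 24 h of TGF-β in parental, C and KD cells (points joined by lines), with bars for all genes tested in the same comparison. At 24 h the members lie between -1.96 and -0.63 in parental cells, between -2.91 and -0.94 in C cells and between -3.23 and -0.99 in KD cells.

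The members called lower at 8 h came from 10 of the 11 roles, and the largest differences were in Mybl2, Ect2 and Melk. Mybl2, which encodes B-Myb, had 16.5 and 14.7 FPKM in untreated parental cells, 6.94 and 7.51 at 8 h, and 5.22 and 4.25 at 24 h. Its 8 h difference of -1.01 (SE 0.09, limma adjusted p = 2.0e-04) was the largest among the members. Ect2, the exchange factor that activates RhoA at the cleavage furrow, had 62.9 and 64.1 FPKM in untreated cells, 32.7 and 37.3 at 8 h, and 16.1 and 15.1 at 24 h. The libraries of the 3 groups did not overlap in either gene. Both libraries at 8 h lay below both untreated ones in 47 of 51 members and in 45.4% of all genes tested. From 8 to 24 h this held for 51 of 51 members and 37.0% of genes. At 24 h Ect2 was the lowest member relative to its untreated level, at 24.6%. Melk, a kinase of the AMPK family that is high in dividing cells, had 18.04 and 17.8 FPKM in untreated cells and 10.3 and 10.9 at 8 h, a difference of -0.71 (SE 0.05, limma adjusted p = 8.0e-05). All 7 genes of condensin and chromosome structure were called lower at 8 h, with a median of -0.53, and so were the 3 genes of cytokinesis and the 4 of the chromosomal passenger complex. Within cytokinesis, Racgap1 had completed 18.8% of its 24 h change, less than the median member.

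The 13 members not called at 8 h in parental cells were spread over several roles. They were Cks2, Cdc25c, Aurka, Bub1b, Ube2c, Pttg1, Cenpa, Cenpe, Cenpf, Kif20a, Kif2c, Tpx2 and Prc1, and so included the 3 centromere genes and 2 of the 4 anaphase genes. Cenpa, the histone variant that marks the centromere, had 47.6 and 44.5 FPKM in untreated cells, 49.4 and 44.1 at 8 h, and 23.9 and 21.8 at 24 h. Its libraries at 8 h overlapped those of untreated cells and then fell below them. Ube2c, the ubiquitin-conjugating enzyme of the anaphase-promoting complex, had 143 and 139 FPKM, then 129 and 124, then 56.9 and 49.8. Its 8 h difference of -0.16 was not called (limma adjusted p = 0.068), and that of the separase inhibitor Pttg1 was -0.05 (limma adjusted p = 0.35).

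A similar order was seen in C and KD cells, which share no library with the parental cells. The shares of all genes called lower at 8 h were 32.1, 44.9 and 44.8% in parental, C and KD cells, and their overlap was not counted. Of the 51 members, 31 were called lower at 8 h in parental, C and KD cells alike, and 8 were called lower in none of them. Those 8 were Bub1b, Cdc25c, Cenpa, Cenpe, Cks2, Kif2c, Pttg1 and Ube2c. Across the 51 genes, the 8 h differences of parental and C cells had a Spearman rho of 0.86 (Pearson r 0.87), and those of parental and KD cells 0.86 (0.87). These are descriptions over genes, which are not independent replicates. At 24 h the corresponding Spearman values were 0.74 and 0.61.

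**Figure D3:**
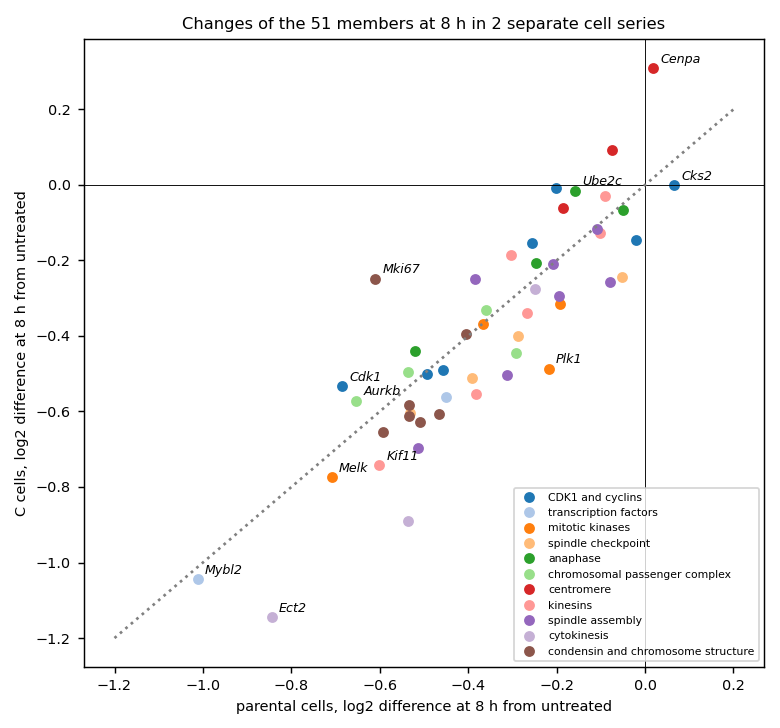
Log2 difference at 8 h of TGF-β from untreated cells for each of the 51 members, in parental cells (x axis) and C cells (y axis), coloured by role, with a dotted line where both are equal. Mybl2 and Ect2 are lowest in both series, and Cenpa and Cks2 lie at the other end.

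By 8 h the level of Cdk1 was further down than that of its cyclin partner or of Cks2. Cdk1, the kinase that drives entry into mitosis, had 82.1 and 76.7 FPKM in untreated parental cells, 48.2 and 49.8 at 8 h, and 27.6 and 25.6 at 24 h, so that 61.7% of its level was left at 8 h. Ccnb1, its cyclin partner, had 86.8 and 84.6, then 71.6 and 71.6, then 32.1 and 29.0. Both genes fell at each step without overlap of the libraries. Of all genes tested, 45.4% did so from untreated cells to 8 h and 37.0% from 8 to 24 h. The 8 h difference was -0.69 for Cdk1 and -0.26 for Ccnb1. Cks2, a small subunit of CDK complexes and the most abundant member of its role, had 103 and 97.0 FPKM in untreated cells, 104.6 and 104.9 at 8 h, and 67.1 and 61.6 at 24 h. Its 64.3% was the highest share kept at 24 h among the members. Cdc25b, a phosphatase that activates Cdk1, was the lowest of the role at 24 h, with 30.8% of its untreated level.

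All mitotic kinases and spindle checkpoint genes were lower at 24 h. Aurka, the kinase of the spindle poles, had 52.6 and 47.5 FPKM in untreated parental cells, 41.7 and 45.6 at 8 h, and 21.6 and 19.1 at 24 h. Its 8 h difference of -0.19 was not called (limma adjusted p = 0.073), and its 24 h difference of -1.26 was (limma adjusted p = 9.9e-06). Mad2l1, the checkpoint protein that holds Cdc20 inactive, had 66.3 and 64.6, then 46.0 and 43.9, then 22.7 and 21.1 FPKM, and was called lower at both times. The 4 mitotic kinases kept between 33.6% (Melk) and 40.6% (Aurka) at 24 h, and the 4 checkpoint genes between 33.4% (Mad2l1) and 45.0% (Bub1b).

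The machinery of the spindle, midzone and chromosomes fell to similar shares. Birc5 (survivin), the passenger protein that brings Aurora B to the centromere, had 130.4 and 121 FPKM in untreated parental cells, 85.4 and 87.5 at 8 h, and 42.2 and 38.1 at 24 h. Racgap1, a subunit of centralspindlin with Kif23, had 89.9 and 87.8, then 72.6 and 76.7, then 35.5 and 34.6 FPKM. All libraries of both genes fell at each time without overlap, as did 45.4% of all genes by 8 h and 37.0% from 8 to 24 h. Top2a, the topoisomerase that untangles sister chromatids, had 109 and 112, then 73.6 and 78.4, then 43.4 and 40.5 FPKM. Kif11, the kinesin that separates the spindle poles, had 62.5 and 62.5, then 39.9 and 41.9, then 18.9 and 17.3 FPKM. At 24 h Kif11 (-1.73) and Mki67 (-1.70), which encodes the proliferation antigen Ki-67, followed Ect2 (-1.96) as the largest falls in parental cells. Prc1, which bundles midzone microtubules, had 67.3 and 67.7, then 63.6 and 64.2, then 36.5 and 33.6 FPKM. Kif20a, a kinesin of cytokinesis, had 42.8 and 44.2, then 39.3 and 41.8, then 22.4 and 20.5 FPKM. These 2 genes kept more than most at 24 h, 51.9% and 49.3% of the untreated level. Foxm1, the other transcription factor on the list, had 32.4 and 32.7, then 22.8 and 24.3, then 14.2 and 13.1 FPKM, and was called lower at both times.

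In C cells the 24 h fall was deeper than the fall of parental cells in its values, although the series are in separate tables and the difference was not tested. The median member kept 21.8% of its untreated level at 24 h in C cells, a 4.58-fold fall, and 15.8% in KD cells, a 6.32-fold fall. All 51 members were called lower at 24 h in both, where 45.1% of the 11450 genes tested in the shRNA table were called lower in C cells and 43.3% in KD cells. Ect2 again kept the least, at 11.97% in C cells and 9.14% in KD cells, and Cks2 the most, at 51.4% and 50.02%. In C cells the largest falls were those of Ect2 (-2.91), Kif11 (-2.59) and Ckap2 (-2.49), a protein of spindle microtubules that had 44.9 and 54.2 FPKM in untreated cells, 30.3 and 29.7 at 8 h, and 7.96 and 7.91 at 24 h. Leaving out any library of the groups compared left all 51 members called lower at 24 h in each of the 3 cell series.

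At 8 h, 33 of 51 members were called lower in C cells (44.9% of genes) and 41 in KD cells (44.8%). The median member kept 74.99% in C cells and 71.6% in KD cells. In C cells the median difference of -0.40 was -0.26 without the second library of untreated cells. Cenpa was the only member called higher, in C cells (19.4% of genes called higher) and in KD cells (23.0%). It had 44.0 and 52.3 FPKM in untreated C cells and 58.9 and 60.6 at 8 h, and 39.3 and 38.1 in untreated KD cells and 50.7 and 51.8 at 8 h. The 8 h libraries were above the untreated ones in both, as in 25.8% of all genes in C cells and 31.8% in KD cells. The rise of Cenpa was 0.31 (SE 0.07, limma adjusted p = 0.0048) in C cells and 0.40 (SE 0.07, limma adjusted p = 0.0011) in KD cells. It was called higher under all 10 alternatives of each comparison, with a rise between 0.19 and 0.45 in C cells and between 0.37 and 0.53 in KD cells. By 24 h it was at 16.2 and 15.5 FPKM in C cells and at 9.27 and 9.84 in KD cells. In the shRNA table the median of all genes was shifted at 8 h, by -0.14 in C cells and -0.13 in KD cells, and at 24 h by -0.13 and -0.10. With the libraries scaled by median ratios, the members called lower at 8 h numbered 24 in C cells and 30 in KD cells. Of the 11450 genes tested, 3476 were then called lower in C cells and 3742 in KD cells, against 5137 and 5132 unscaled. The share of higher calls among all calls then went from 30.2 to 48.2% in C cells and from 33.9 to 48.9% in KD cells at 8 h, and at 24 h from 36.1 to 50.7% in C cells and, with quantile normalization, from 39.8 to 50.1% in KD cells.

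The comparison of KD with C cells asks whether the level of lamin B1 goes with the expression of these genes. Without TGF-β the members were slightly lower in KD cells, with a median of 89.1% of the level of C cells, and 14 of 51 were called lower (9.09% of genes) and none higher by limma. Both KD libraries were below both C libraries in 28 members, as in 32.5% of all genes. The largest differences were in Cdc25b, Plk1 and Nek2. Cdc25b had 16.1 and 15.9 FPKM in KD cells and 21.9 and 25.8 in C cells, a difference of -0.54 (SE 0.07, limma adjusted p = 0.0017). Plk1, the polo kinase of mitotic entry, had 45.7 and 42.3 in KD cells and 59.7 and 66.2 in C cells. Nek2, a kinase of the centrosome, had 19.7 and 19.6 in KD cells and 24.4 and 28.8 in C cells. These calls rest on the untreated C libraries, which differed from each other in the same direction in all members. Without the first of them 25 members were called, and without the second 1. The median difference of the members, -0.16 on the log2 scale with all libraries, was -0.29 without the first and -0.03 without the second, where that of all genes was -0.02. Fewer members were also called without either KD library, where the median difference was -0.18 without the first and -0.14 without the second. With only these 2 groups in the fit 1 member was called lower, as were 320 of 11450 genes. None of the 14 was called under every alternative. Median-ratio scaling gave 8 calls, where 765 of 11450 genes were called lower. With it the share of higher calls over all genes went from 53.8 to 65.4%.

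After 8 h of TGF-β more members were lower in KD cells. The median member was at 79.2% of its level in C cells, 33 of 51 were called lower (16.5% of genes), and both KD libraries were below both C libraries in 50 of 51 (37.2% of genes). Mybl2 differed most. It had 3.69 and 3.81 FPKM in KD cells and 8.20 and 8.23 in C cells at 8 h, a difference of -0.96 (SE 0.10, limma adjusted p = 2.8e-04) that left 45.7% of the level of C cells. Foxm1 had 15.6 and 15.7 in KD cells and 23.9 and 24.3 in C cells, a difference of -0.59 (SE 0.09, limma adjusted p = 0.0013). Espl1, which encodes separase, had 5.99 and 5.44 in KD cells and 9.63 and 9.19 in C cells, a difference of -0.63. Prc1 had 41.0 and 42.2 in KD cells and 64.8 and 65.3 in C cells, a difference of -0.63. The libraries of the groups did not overlap in any of these genes. Leaving out any 1 of the 4 libraries lowered the count of members called, and that of all genes called lower. The median difference of the members then lay between -0.32 and -0.31. Foxm1, Mybl2, Cdc20, Espl1, Aurkb, Cdca8 and Prc1 were called lower under all 10 alternatives.

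After 24 h the members were lowest in KD cells. The median member was at 59.6% of its level in C cells, 49 of 51 were called lower (11.5% of genes), and both KD libraries were below both C libraries in all 51 (27.0% of genes). Of the members, 43 were among the lowest 5% of all genes by this difference. Pttg1 and Cks2, both at -0.20, were the members not called (limma adjusted p = 0.15 and 0.099). Among members with at least 5 FPKM in C cells, the largest differences were in Smc4, Mki67 and Ncapg. Cenpe, a kinetochore motor below that level, was at -0.94. Mki67 had 4.77 and 3.74 FPKM in KD cells and 8.38 and 8.998 in C cells, a difference of -0.89 (SE 0.12, limma adjusted p = 0.0014). Ncapg, a condensin subunit, had 3.12 and 2.44 in KD cells and 6.05 and 5.80 in C cells, a difference of -0.88 (SE 0.11, limma adjusted p = 9.4e-04). Smc4, the condensin ATPase, had 11.7 and 6.02 in KD cells and 17.1 and 16.5 in C cells. Its difference of -0.91 (SE 0.22) rests on KD libraries that were far apart, and lay between -1.34 and -0.48 when 1 library was left out. It was not called without either C library or with only these 2 groups in the fit, where its limma adjusted p reached 0.15. By role, the median log2 difference was largest in condensin and chromosome structure (-0.86) and smallest in the CDK1 and cyclin genes (-0.38). As a share of the level in C cells, the centromere genes were lowest instead. Their median was 47.9%, against 52.8% for condensin and chromosome structure and 74.2% for the CDK1 and cyclin genes. Differences between roles were not tested. With only these 2 groups in the fit, 19 members were called lower, as were 217 of 11450 genes tested. With all groups in the fit 1317 genes were called lower. Fewer members were called without either C library or without the first KD library. With 1 library left out, the median difference of the members lay between -0.61 and -0.53.

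**Figure D4:**
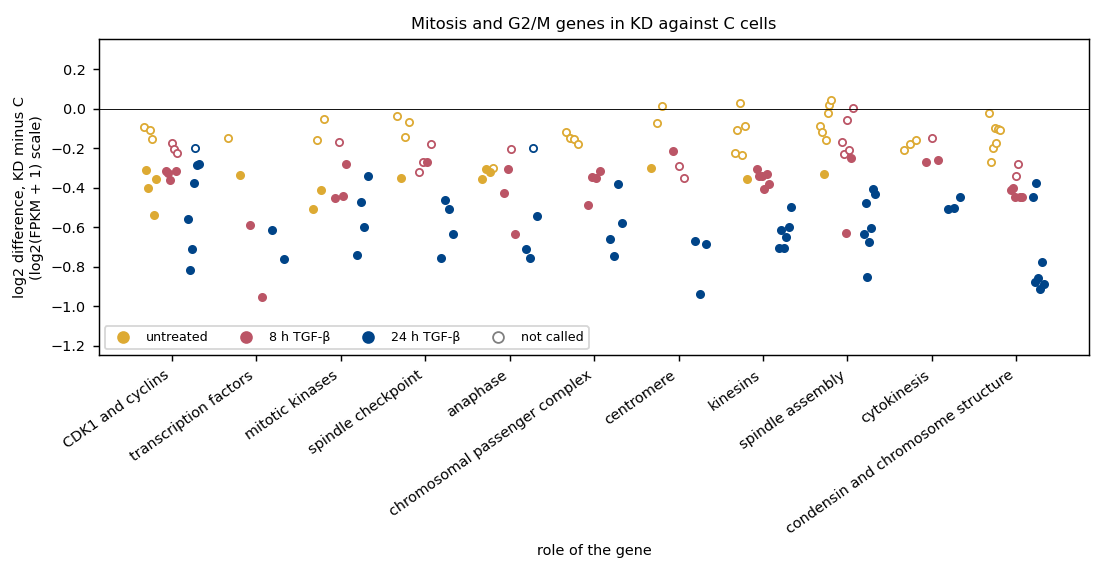
Log2 difference of KD from C cells for each member, by role, in untreated cells and after 8 and 24 h of TGF-β, with filled points for members called lower. The median goes from -0.16 without TGF-β to -0.32 at 8 h and -0.62 at 24 h.

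Whether KD and C cells differed in their response to TGF-β was tested directly. At 8 h the response of Mybl2 was lower in KD cells by 0.62 (SE 0.14, limma adjusted p = 0.048) and no other member was called (1.61% of genes were called lower). At 24 h the response was lower in KD cells in 12 members (1.98% of genes) and higher in none by limma, with a median over the 51 members of -0.42 and over all genes of 0.03. The 12 were Aurkb, Bub1, Cdca8, Ckap2l, Kif11, Kif20a, Kif23, Mad2l1, Mki67, Prc1, Top2a and Ttk. Top2a fell from 94.1 and 121 to 22.8 and 22.8 FPKM in C cells and from 99.4 and 99.3 to 12.3 and 13.5 in KD cells. Kif23, a kinesin of the central spindle, fell from 55.7 and 68.7 to 11.4 and 10.6 in C cells and from 64.4 and 62.0 to 6.73 and 5.97 in KD cells. In both genes the untreated C and KD libraries overlapped and the 24 h libraries did not. None of these calls was kept under every alternative. At both times, where a left-out library gave more or fewer members lower, it also gave more or fewer of all genes lower. Leaving out a library gave between 0 and 12 calls at 8 h and between 0 and 31 at 24 h, and the most calls at each time came without the second library of untreated C cells. At 8 h Mybl2 was called lower without that library, and without any other library of the comparison no member was called lower. At 24 h, without the first library of untreated C cells, 4 members were called lower and 1 higher. There were 23 calls, all lower, without the first KD library at 24 h and 17 without the second, and none without any of the other 4 libraries. The share of higher calls over all genes at 24 h went from 58.0 to 41.4% with median-ratio scaling.

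Other genes of the cell cycle were taken from lists written for this comparison. Of 61 further mitosis genes tested in parental cells, 51 were called lower and 1 higher at 8 h (32.1% of all genes were called lower and 22.4% higher). At 24 h 57 were called lower and 2 higher (37.1% and 33.4% of all genes). Their medians were -0.39 at 8 h and -1.18 at 24 h. The 39 DNA replication genes were all called lower at 8 and at 24 h in parental, C and KD cells. Their median was -0.80 at 8 h and -1.24 at 24 h in parental cells, where that of the 51 members was -0.36 and -1.34. In KD cells the replication genes were at -1.43 at 8 h against -0.77 in C cells. In the test of the response at 8 h, 22 of the 39 were called lower, where 1 of 51 members and 1.61% of all genes were. No alternatives were run for the count of replication genes, and the member call was not kept under every alternative.

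Among 16 genes of the RB family, E2F factors and the MuvB core, 10 were called lower and none higher at 8 h in parental cells by limma. At 24 h 9 were called lower and 2 higher. Of all genes, 32.1% were called lower at 8 h, and 37.1% lower and 33.4% higher at 24 h. Lin54, the DNA-binding subunit of MuvB, was at -1.02 at 24 h (SE 0.06, limma adjusted p = 6.6e-06), and Rbl1 (p107) at -1.09. E2f4, the E2F of the DREAM complex, was at 0.04 and was not called (limma adjusted p = 0.40). Of 13 CDK inhibitors, D cyclins, CDKs and Myc tested, 4 were called higher and 7 lower at 24 h, where 33.4% of all genes were called higher and 37.1% lower. Cdkn2b, which encodes p15, had 27.7 and 28.5 FPKM in untreated parental cells, 47.0 and 47.5 at 8 h, and 64.4 and 67.0 at 24 h. Cdkn1a, which encodes p21, had 91.0 and 84.0, then 80.6 and 75.9, then 63.1 and 60.9. The level of Cdkn2b rose as those of Cdkn1a and of Ccnd1 (-1.07 at 24 h) fell. Cdkn1b, which encodes p27, was at -0.45 at 24 h, and Myc was at -0.09 and was not called (limma adjusted p = 0.26).

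Lamin B1 peaks at the members were no more frequent than at other expressed genes. A TSS was taken as the 5′ end of the gene in GENCODE M1 on mm9, the build of the peak lists, and a peak counted when it overlapped the 500 bp on either side. At the TSS of 10 of 51 members there was a lamin B1 peak without TGF-β, at that of 21 after 8 h and at that of 10 after 24 h. These are 19.6, 41.2 and 19.6% of members, against 27.0, 46.5 and 37.5% of the 10625 genes tested in parental cells that could be placed. At 26 members there was no lamin B1 peak at any time, Cdk1, Ccnb1, Plk1, Cenpa and Top2a among them. Birc5, Incenp, Ncapg and Prc1 had a peak at all 3 times. That of Prc1 in untreated cells lay at chr7:87439042-87440016, over the start of the gene, with a MACS score of 60.0, and that of Ncapg at chr5:46060875-46061728, with a score of 92.6. The lowest score kept in the lists is 50. With 1 library per time these counts have no replicate error. When only the higher scoring peaks of each list were kept, the counts were 6, 6 and 0, without a share of genes tested to compare them with.

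ATAC-seq, which marks accessible chromatin, found a peak at the TSS of 41 members without TGF-β, 35 after 8 h and 50 after 24 h, the last being all but Cdca8. These are 80.4, 68.6 and 98.0% of members, against 56.3, 46.1 and 84.0% of the genes tested. The count was highest at 24 h, when the RNA of all 51 members was lowest, in a list of 33811 peaks against 9782 without TGF-β and 10340 after 8 h. With lists cut to equal length the 24 h count was 31. The share of genes tested is not given for the cut lists, so this count has no comparison. Members with a lamin B1 peak in untreated cells had a median KD difference at 24 h of -0.73 (10 genes), and members without one -0.60 (41 genes). Split by a peak at 8 h the medians were -0.64 (21 genes) and -0.60 (30 genes). Split by a peak at 24 h they were -0.72 (10 genes) and -0.60 (41 genes), and by a peak at any time -0.63 (25 genes) and -0.60 (26 genes). These splits were not tested.

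**Figure D5:**
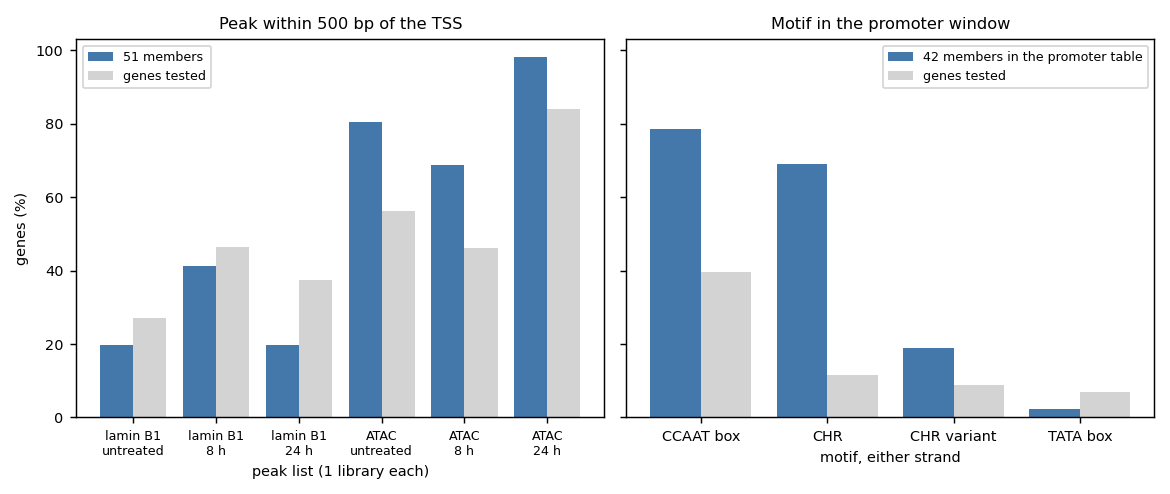
Share of genes with a lamin B1 or ATAC peak within 500 bp of the TSS at each time (left) and with each motif in the promoter window (right), for the members (blue) and for the genes tested in parental cells (grey). Lamin B1 peaks are less frequent at the members than at the genes tested at each time, and ATAC peaks, the CCAAT box and the CHR are more frequent.

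Some members share genome with other genes. By GENCODE M1, 21 of 51 overlap another annotated gene, among them Ccna2 (Exosc9), Cdc20 (Elovl1), Ube2c (Tnnc2), Kif20a (Cdc23) and Prc1 (6330403N20Rik). For Cks2, Ect2 and Top2a the overlapping entries were only ones named SNORA. A pseudogene is named after 3 members (Ccnb2, Kif4 and Kif22). How the counting treated strand or shared reads is not given in the sources used here. Reads of such neighbours could therefore enter the values of these members.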

How the data were processed

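The authors deposited RNA-seq values as FPKM, one column per library. The labels name TopHat, Bowtie, Cufflinks and mm9, without versions or roles. Neither table names its columns, which were read in the order given with the samples. The authors called lamin B1 and ATAC peaks with MACS and deposited positions on mm9 with a score per peak. Each ChIP library mixed parallel ChIPs. Hi-C data were not analysed here.

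FPKM values were tested as log2 after adding 1, for genes reaching 1 FPKM in 2 or more libraries of a table. The test was that of limma (version 3.58.1, R 4.3.3), with empirical Bayes moderation and an intensity trend. All libraries of a table entered 1 fit, and p-values were adjusted by Benjamini-Hochberg over all genes tested. Adding 1 understates the change of low genes. Nothing in the sources names an RNA-seq test. The methods call the 2 libraries of a group biological replicates, and p-values measure the spread between these libraries. With 2 libraries against 2, an exact permutation test of a single gene cannot go below p = 0.333. In a simulation on the parental table (11309 genes, 200 changed), 96% of changes of 1 and 83% of changes of 0.5 at 8 h were called, and 5 of 184 calls were unchanged genes. For C cells at 8 h in the shRNA table (11450 genes, 200 changed) these were 93% and 76%, and 12 of 181 calls were unchanged genes. The simulated noise was independent between genes, and in the data far more genes were called, in parental cells at 8 h 32.1% lower and 22.4% higher. The simulated rates therefore need not hold for the data. Peaks, motifs and figures used Python 3.11.15, pandas 2.3.3, numpy 2.4.6, scipy 1.17.1 and matplotlib 3.10.9. An overlap was at least 1 bp.

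The members and the gene lists were chosen with earlier results of these data known. Genes with values in each library are the member with the highest mean FPKM of each role, the 3 members with the largest rise or fall among called members without overlap and with at least 5 FPKM in the higher group, Foxm1 and Mybl2. Cdk1, Ccnb1, Kif23, Cenpe, Pttg1, Lin54, Rbl1, E2f4 and the genes listed by name beside a count were chosen after their values were seen. The alternatives were 0.1 added, no filter, quantile normalization, median-ratio scaling, leaving out each library, a replicate block, a fit without the other groups, and for peaks a score minimum, other distances and overlaps, lists of equal length and, added after seeing the data, any annotated transcript start.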

Additional observations from a re-analysis of the deposited data

Results flagged for a closer look

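The test of whether KD and C cells differed in response singled out 1 member at 8 h and 12 at 24 h (limma, adjusted p under 0.05). At 8 h Mybl2 differed by -0.62, with 11 of 14 alternatives leaving it uncalled. At 24 h the differences were -0.78 in Mki67, -0.74 in Kif23, -0.72 in Bub1, -0.67 in Top2a, -0.57 in Ttk, -0.54 in Aurkb, -0.52 in Prc1, -0.51 in Kif20a, -0.48 in Kif11, -0.47 in Ckap2l, -0.40 in Cdca8 and -0.37 in Mad2l1. Kif23 had the lowest adjusted p of the 12 (0.021) and was called in 9 of 14 alternatives, in which its adjusted p ranged from 0.0027 to 0.105. The 12 adjusted p-values lay close to the threshold, and the largest was 0.0499 (Cdca8).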

How the results depend on the processing

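Of 155 alternative values of the counts of members, 115 were within 1.5 times the reported count. The calls against untreated cells and between 24 and 8 h kept their counts to this extent under each alternative run. The KD difference in untreated cells gave 14 calls, 6 without the filter, 8 with median-ratio scaling, 1 with only the groups compared, and 1 to 25 when a library was left out. At 8 h leaving out a library gave 10 to 13 in place of 33. With a library left out at 8 h, the count of all genes called lower fell too. At 24 h the 49 calls became 19 with only the groups compared, where genes called lower went from 1317 to 217 of 11450. The response difference at 8 h went from 1 to 0 without the filter, with quantile normalization, median-ratio scaling or a replicate block, and ranged from 0 to 12 without a library, with 1 call, now higher in KD cells, without the first library of untreated C cells. At 24 h the 12 became 2 without the filter, 0 with only the groups compared, 5 with the replicate block, and 0 to 31 without a library (5 without the first, of which 1 was higher in KD cells, and 31 without the second library of untreated C cells, 23 without the first KD library at 24 h). The cause of these changes was not tested, apart from the fewer libraries left in a fit. A left-out library leaves a group with 1 library, assumed to vary like the other groups. The differences between the 2 libraries of a shRNA group, taken in number order, correlated between -0.14 and 0.37 over 15 pairs of groups. Of these, 2 were above 0.1, C with KD cells at 24 h (0.37) and untreated with 24 h KD cells (0.18). Whether same-numbered libraries shared a batch was not tested. The replicate block changed no other count by over 1.5 times. Lamin B1 peaks at or above the median score gave 6, 6 and 0 members in the order of time. With lists of equal length the lamin B1 counts were 6 at 8 h and 2 at 24 h, and the ATAC count at 24 h was 31. For these shortened lists no share of all genes tested is given. Depth is unknown in every file, which limits any statement on low values and on the number of peaks.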
